A study of Mus musculus with 30 samples.

Results

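The 9 enzymes listed here belong to the tricarboxylic acid cycle or its malate shuttle (Cs, Idh2, Idh3a, Ogdh, Suclg1, Sdhb, Fh1, Mdh1 and Mdh2) and were followed in newborn mice without the orphan nuclear receptor ERRγ and in wild-type mice. All probe sets annotated with 1 of these 9 symbols were taken, which gave 17 probe sets of the 22626 on the array that were not controls, and 9 of the 12393 genes with a symbol of their own. Cs and Idh3a had 3 probe sets each, Mdh1 had 4, Mdh2 had 2, and the other 5 genes had 1. The groups were ERRγ-null and wild-type stomach, kidney, liver, salivary tissue and brain, with 3 arrays (Affymetrix MOE430A) in each of the 10 groups and 30 in all. Every group was neonatal and of mixed SV129/C57BL/6 background, with sex recorded as unknown, and the labels do not give the construction of the null allele. Nor do they say whether the 3 arrays of a group came from 3 animals, so p-values measure the spread between these arrays.

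The tricarboxylic acid cycle runs in the mitochondrial matrix. It oxidizes acetyl groups to carbon dioxide and passes the electrons to NADH and to the respiratory chain. The estrogen-related receptors, together with the coactivators of the PGC-1 family, are known as activators of genes for this cycle, for oxidative phosphorylation and for fatty acid oxidation in tissues with a high energy demand, acid-secreting stomach and renal tubule among them.

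All values are log2 MAS5 signals, a background-corrected brightness of 1 probe set, and a difference of 1 is a doubling of that signal. A gene with several probe sets is represented by the brightest one, by its mean over all arrays, and levels are compared between tissues or genotypes within a probe set, never between probe sets. In bulk tissue, fewer cells of a type and less RNA per cell cannot be told apart.

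Array medians ran between 5.80 and 6.08 and no arrays were duplicates. The only Esrrg probe set was dim and its place relative to the deletion is not given, so it checks no label. In stomach it read 6.48 ± 0.09 on null arrays and 5.99 ± 0.05 on wild-type arrays (SD, n = 3 each, limma adjusted p = 0.0312), and its adjusted p was 0.763 or more in the other tissues. Xist was above 8 on 2 of 3 arrays in every group, so no group came from 1 animal alone. The array under 8 was null replicate 1 and wild-type replicate 3 in all 5 tissues, and the labels do not say whether a number stands for 1 animal over tissues. The marker lists for each tissue were high in the labelled tissue, but some arrays also carried other signals. Wild-type stomach replicates 2 and 3 held liver transcripts, with Alb at 10.25 and 11.90 against 5.93 on the other wild-type array and 6.19 to 7.06 on null arrays. In salivary tissue, the brown fat gene Ucp1 was at 11.31, 12.75 and 11.02 on null arrays and at 5.99, 4.04 and 12.14 on wild-type arrays. The 3′ minus 5′ gap of the Gapdh control, a measure of RNA degradation, averaged 3.77 ± 0.22 in null and 2.60 ± 0.45 in wild-type stomach, and 4.06 ± 0.13 in null and 4.51 ± 0.28 in wild-type liver.

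In wild-type newborns the 9 enzymes did not share 1 tissue profile. Over the 5 wild-type tissues, 7 of the 9 passed limma's F test across tissues, where 86.7% of all probe sets tested passed, so the share among the enzymes is near the background. Sdhb and Fh1 did not pass, with adjusted p = 0.109 and 0.0968. Of the 36 pairs of tissues next to each other in the order of an enzyme's levels, 4 differed, and of all 90 pairs of tissues 30 differed. Without wild-type salivary replicate 3, the array with Ucp1 at 12.14, these counts were 11 and 48. With a number within a genotype as a random block over tissues the counts stayed at 4 and 30. The shares over all probe sets that follow are from the fit with all wild-type arrays, and 30 of 90 lies near the lowest of them. No such share was taken without that salivary replicate, so 11 and 48 have no background beside them. Over all probe sets, 31.6% differed between stomach and kidney, 57.0% between stomach and liver, 39.8% between stomach and salivary tissue, 59.3% between stomach and brain, 55.9% between kidney and liver, 39.9% between kidney and salivary tissue, 53.5% between kidney and brain, 53.6% between liver and salivary tissue, 66.0% between liver and brain and 58.1% between salivary tissue and brain.

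Idh2, the NADP-dependent isocitrate dehydrogenase of the mitochondrial matrix, spanned the widest range, 2.59 log2 units (adjusted p = 3.51e-11). Its wild-type level was 10.08 ± 0.10 in kidney, 9.55 ± 0.10 in salivary tissue, 9.30 ± 0.16 in stomach, 8.79 ± 0.13 in liver and 7.49 ± 0.08 in brain (SD, n = 3 each). Neighbours in this order differed by limma except salivary tissue and stomach, whose adjusted p was 0.0547. Idh3a, the catalytic subunit of the NAD-dependent isocitrate dehydrogenase that turns the cycle forward, had another order. It was at 10.30 ± 0.68 in salivary tissue, 9.69 ± 0.08 in kidney, 9.42 ± 0.03 in brain, 9.12 ± 0.12 in stomach and 8.89 ± 0.10 in liver, and only salivary tissue and kidney differed as neighbours (0.61, adjusted p = 0.0375). Without wild-type salivary replicate 3 that gap was 0.22 (adjusted p = 0.0857). The other neighbours then differed by limma, with adjusted p = 0.0139 for kidney and brain, 0.00633 for brain and stomach and 0.0325 for stomach and liver. On this probe set brain stood in the middle, but both dimmer Idh3a probe sets were highest in brain, 1422501_s_at at 7.33 ± 0.23 and 1422500_at at 6.39 ± 0.08.

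Cs, citrate synthase, which condenses acetyl-CoA with oxaloacetate, ran from 10.43 ± 0.71 in wild-type salivary tissue to 9.56 ± 0.07 in liver, with brain, kidney and stomach between them (adjusted p = 0.0160 over the tissues). Without wild-type salivary replicate 3, brain came first, ahead of kidney and salivary tissue. The other Cs probe sets were highest in stomach, and kidney exceeded liver on 1422578_at (adjusted p = 0.00194) and liver exceeded brain on 1422577_at (adjusted p = 0.0168). On the brightest probe sets no neighbours differed for Cs, Ogdh, Suclg1, Mdh1 or Mdh2 with all arrays. Ogdh, the first enzyme of the 2-oxoglutarate dehydrogenase complex, was highest in stomach at 7.85 ± 0.09 and lowest in liver at 6.93 ± 0.28 (adjusted p = 0.00950). Suclg1, the alpha subunit of succinyl-CoA ligase, was highest in liver at 10.04 ± 0.34 and lowest in brain at 8.94 ± 0.10 (adjusted p = 0.0126). The lowest place of brain depends on wild-type salivary replicate 3. Leaving it out, salivary tissue minus brain was -0.14 (limma adjusted p = 0.546), and stomach exceeded salivary tissue by 0.63 (adjusted p = 0.0167).

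The malate dehydrogenases also differed by tissue. Mdh1, the cytosolic enzyme of the malate-aspartate shuttle, was highest in liver at 11.03 ± 0.10 and lowest in stomach at 10.21 ± 0.17 (adjusted p = 5.25e-04). This order depends on the probe set, since 1448172_at was highest in kidney at 11.07 ± 0.08, above liver at 10.40 ± 0.48 (adjusted p = 0.00710), and lowest in brain at 10.05 ± 0.05. Mdh2, the mitochondrial enzyme that regenerates oxaloacetate, moved least among those that passed, between 11.20 ± 0.16 in salivary tissue and 10.79 ± 0.02 in stomach (adjusted p = 0.0146). Sdhb, the iron-sulfur subunit of succinate dehydrogenase, lay between 10.50 ± 0.07 in kidney and 9.97 ± 0.07 in stomach. Fh1, fumarate hydratase, lay between 10.31 ± 0.35 in salivary tissue and 9.90 ± 0.32 in brain. Leaving out wild-type salivary replicate 3, salivary tissue no longer came first for Mdh2 or Fh1. It was then at -0.02 minus brain for Mdh2 and at -0.09 minus stomach for Fh1 (limma adjusted p = 0.899 and 0.736). For Sdhb it was at -0.22 minus brain (adjusted p = 0.175), which placed it below stomach.

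**Figure D1:**
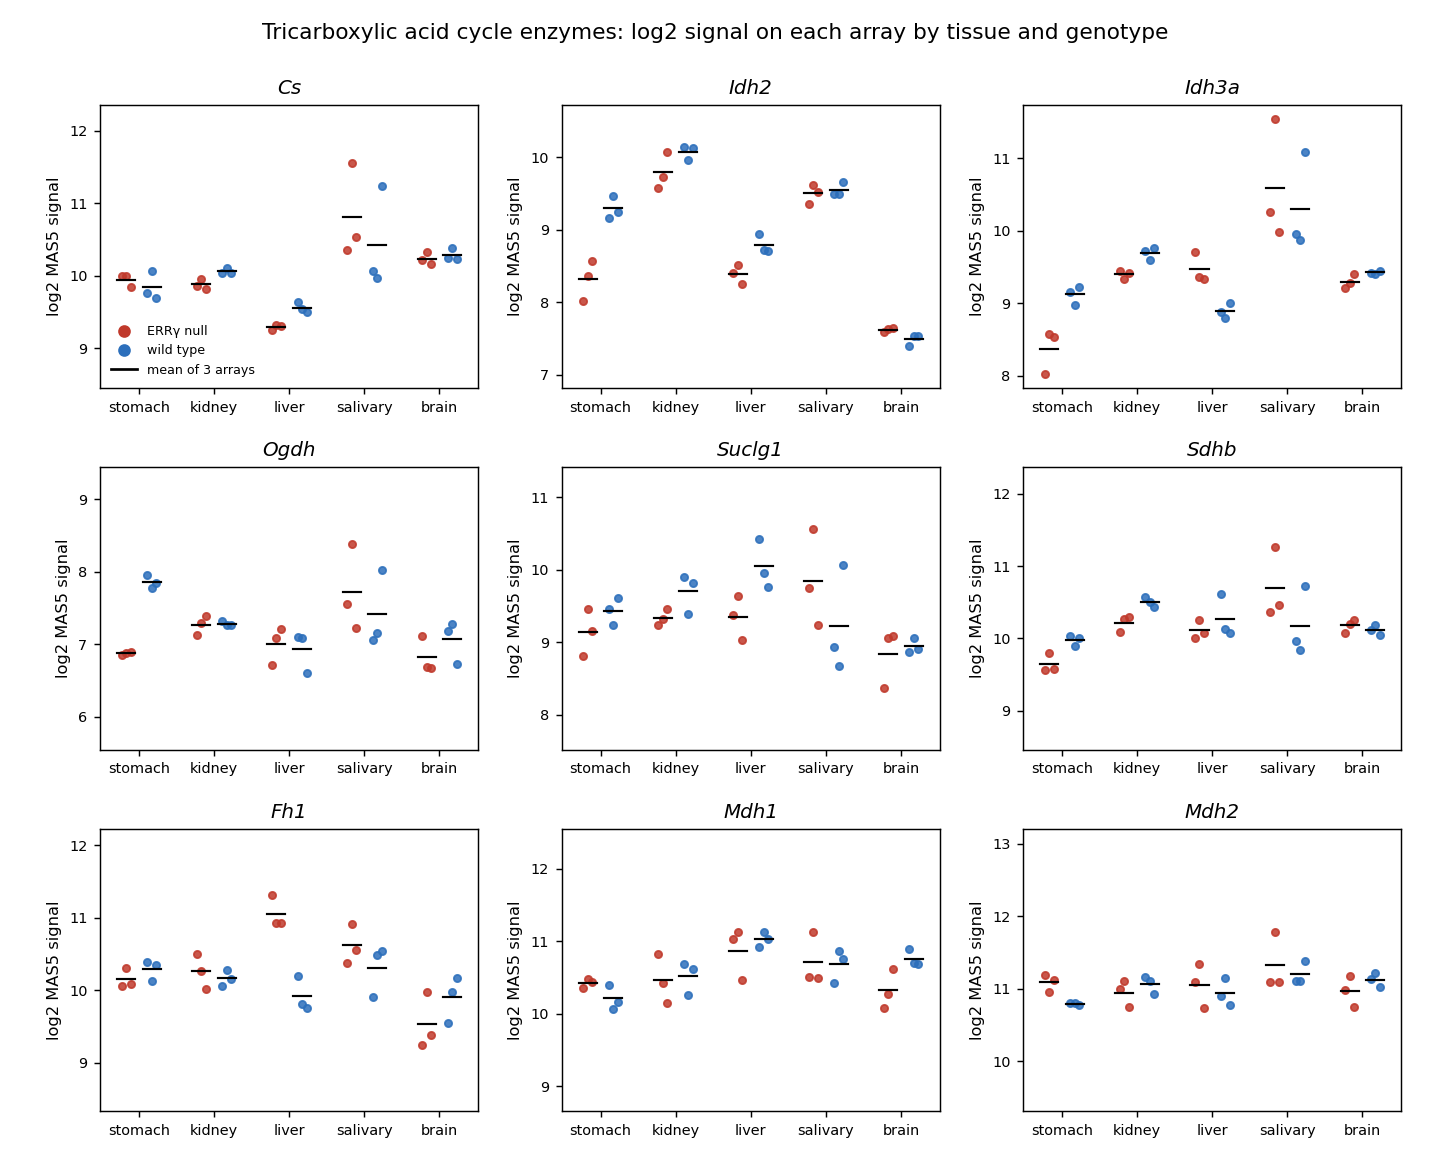
Log2 MAS5 signal of the 9 enzymes on each of the 30 arrays, with tissues on the x axis, ERRγ-null arrays in red left of wild-type arrays in blue, and bars at the mean of 3 arrays. Each panel spans the same number of log2 units, and Idh2 shows the widest range over tissues, Idh2, Idh3a and Ogdh lie lower in null stomach, and Fh1 lies higher in null liver.

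As a description over the 30 arrays, the mean of the 9 enzymes, each scaled to mean 0 and SD 1, was compared with 10104 other genes. The 6 most alike were Dnajc15, an inner-membrane co-chaperone, with r = 0.94, Dlat, a subunit of the pyruvate dehydrogenase complex, with r = 0.87, Ndufv1 with 0.85, Cyc1 with 0.84, Uqcrc2 with 0.84 and Ndufs3 with 0.83. The last 4 encode respiratory chain subunits. The arrays share 5 tissues and 10 groups, so these r follow the tissues as well as single arrays. The mean of the 9 stood at 2.39 on null salivary replicate 2 and 1.46 on wild-type salivary replicate 3. All other arrays lay between -0.90 and 0.51. Those salivary arrays had the highest Ucp1, at 12.75 and 12.14, and their weight in these r was not tested. Among the enzymes themselves r ran from -0.10 between Ogdh and Mdh1 to 0.76 between Idh3a and Sdhb.

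In stomach 4 of the 9 enzymes differed between the genotypes. Idh2, Idh3a and Ogdh fell, Mdh2 rose, and Cs, Suclg1, Sdhb, Fh1 and Mdh1 did not pass. That is 3 lower and 1 higher of 9, where 12.2% of all 13576 probe sets tested fell and 11.2% rose, 23.5% in all. The median difference of the 9 was -0.29, against 0.03 over all probe sets tested, and -0.13 without null replicate 1. The list of 9 was drawn up with earlier results of these data known, so its share and median are descriptions, not tests. The comparison asks which stomach transcripts depend on ERRγ.

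Ogdh read 6.85, 6.88 and 6.90 on null stomach arrays and 7.95, 7.77 and 7.84 on wild-type arrays. The null arrays lay within 0.05 log2 units of each other and far below the wild-type ones. The difference was -0.98 ± 0.11 (SE), a ratio of 0.508, with limma adjusted p = 0.00170. Idh2 read 8.02, 8.36 and 8.57 on null arrays and 9.17, 9.47 and 9.25 on wild-type arrays. Its groups did not overlap, and the difference was -0.98 ± 0.16, a ratio of 0.507 (adjusted p = 0.00493). With it, the wild-type gap of Idh2 between stomach and liver was no longer seen in null mice. There liver stood at 8.40 ± 0.13 and stomach at 8.32 ± 0.28, with overlapping arrays, and the change of order was not tested.

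Idh3a read 8.02, 8.57 and 8.53 on null stomach arrays and 9.16, 8.98 and 9.22 on wild-type arrays, again with no overlap. The difference was -0.75 ± 0.16, a ratio of 0.596 (adjusted p = 0.0135). Its dimmer probe set 1422501_s_at overlapped between the groups, at -0.18 (adjusted p = 0.548), and the third, 1422500_at, was under the filter on low signals. Without wild-type replicate 3 the adjusted p of Idh3a was 0.0521.

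Mdh2 read 11.19, 10.96 and 11.12 on null stomach arrays and 10.80, 10.80 and 10.77 on wild-type arrays. The difference was 0.30 ± 0.09 (adjusted p = 0.0400), and its other probe set 1416478_a_at differed by 0.03 (adjusted p = 0.849). The rise of Mdh2 therefore rests on 1 of its 2 probe sets, and it lost the call in 15 of 20 alternative settings. Sdhb read 9.57, 9.80 and 9.58 on null arrays and from 9.89 to 10.03 on the 3 wild-type arrays. These groups did not overlap, as was the case for 42.8% of all probe sets in stomach, but the difference of -0.32 missed the threshold (adjusted p = 0.0519).

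Cs and Mdh1 gave different answers with different probe sets. The brightest Cs probe set differed by 0.11 (adjusted p = 0.539), while 1422578_at read 9.33, 9.63 and 9.35 on null and 9.89, 9.84 and 9.75 on wild-type arrays, a difference of -0.39 (adjusted p = 0.0374). The third, 1422577_at, was at -0.38 (adjusted p = 0.0714). For Mdh1 the brightest probe set differed by 0.21 (adjusted p = 0.175), while 1448172_at read 9.20, 9.53 and 9.19 on null arrays and 10.05, 10.09 and 10.17 on wild-type arrays. That is -0.80 ± 0.12 (adjusted p = 0.00390), so whether Mdh1 differed in stomach depends on the probe set. The remaining Mdh1 probe sets were at 0.05 and, for a dim one, 1.13 (adjusted p = 0.877 and 0.0573). By probe set, 5 were lower and 1 was higher of the 16 tested.

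**Figure D2:**
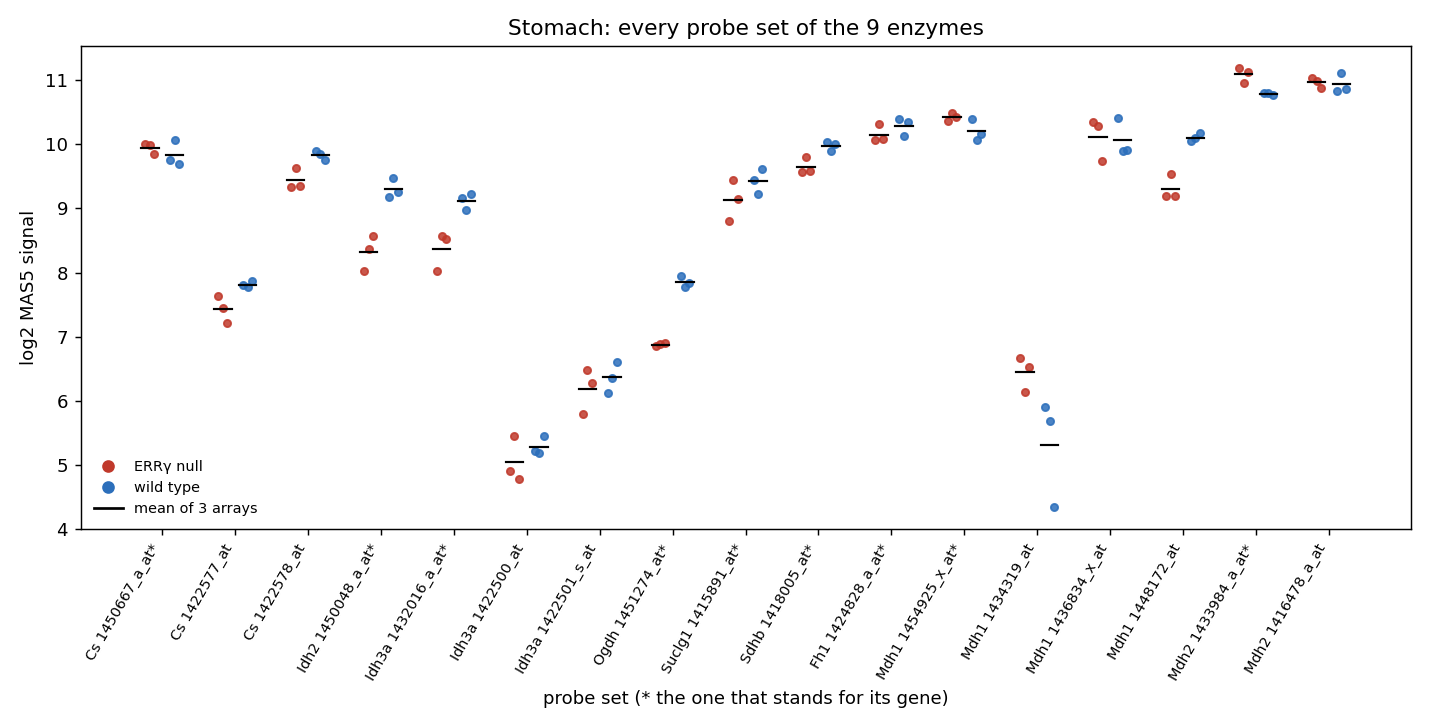
Log2 MAS5 signal of all 17 probe sets of the 9 enzymes in stomach, null arrays in red left of wild-type arrays in blue, bars at the mean of 3 arrays, and an asterisk on the probe set that stands for its gene. Idh2, Ogdh, the brightest Idh3a probe set and Mdh1 1448172_at lie about 1 log2 unit or less below wild type in null stomach, while the other probe sets of Idh3a and Mdh1 overlap or lie higher.

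Of the 9 other listed cycle genes with a probe set, 3 fell in null stomach and none rose. Sdhd, a membrane anchor of succinate dehydrogenase, differed by -0.53 (adjusted p = 0.0153), Suclg2, the GTP-forming beta subunit of succinyl-CoA ligase, by -0.60 (adjusted p = 0.0388), and Dlst, the second enzyme of the 2-oxoglutarate dehydrogenase complex, by -0.37 (adjusted p = 0.0452). The call was lost in 15 of 20 alternative settings for Dlst, 10 of 19 for Suclg2 and 5 of 20 for Sdhd. The median of the 9 was -0.28. The other subunits of the NAD-dependent isocitrate dehydrogenase, Idh3b and Idh3g, were at -0.09 and 0.09 (adjusted p = 0.483 and 0.534). Succinate dehydrogenase subunits, too, gave different answers by probe set: Sdhc 1448630_a_at was at -1.14 (adjusted p = 0.00128) and Sdha 1426689_s_at at -0.44 (adjusted p = 0.0144), while the probe sets that stand for these genes were at -0.12 and -0.28 (adjusted p = 0.565 and 0.0782). The second Sdhd probe set, 1437489_x_at, had the opposite sign, at 0.46 with all null above all wild-type arrays (adjusted p = 0.0647). These dimmer probe sets were named after their values were seen. Of 8 cytosolic relatives and feeding enzymes, Got1, the cytosolic aspartate aminotransferase of the malate-aspartate shuttle, fell by 1.12 on the log2 scale (adjusted p = 0.00267), and Pcx, pyruvate carboxylase, which makes oxaloacetate from pyruvate, fell by 0.39 (adjusted p = 0.0490), a call lost in 15 of 20 alternative settings. Idh1, the cytosolic isocitrate dehydrogenase, was at 0.15 (adjusted p = 0.285).

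Several values moved with these differences in stomach. The summed signal of 5 markers listed for parietal cells was 9.37 to 9.54 on null arrays and 12.22 to 12.32 on wild-type arrays. Among them Atp4a read 5.58, 5.33 and 5.37 on null and 10.57, 10.36 and 10.46 on wild-type arrays. Cblif fell less, at 8.51, 8.57 and 8.71 on null and 9.38, 9.03 and 9.66 on wild-type arrays, and weighs in the null sum. The summed signal of 8 skeletal muscle markers was 8.04 to 8.48 on null and 8.86 to 9.10 on wild-type arrays. The part of either list in the enzymes' differences was not tested. With the Gapdh gap as a covariate none of the 9 enzymes passed, and 2 of all 13576 probe sets tested did. Idh2 then stood at -1.01 and Ogdh at -0.82, while Idh3a shrank to -0.26 (adjusted p = 0.351, 0.314 and 0.780). Without the pair of wild-type arrays with Alb over 8, which leaves 1 wild-type array, none of the 9 passed either, and of all probe sets tested 15 rose and 9 fell, though Ogdh stood at -1.07, Idh2 at -0.85 and Idh3a at -0.79.

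In kidney none of the 9 enzymes passed the test, where 0.412% of all probe sets tested rose and 0.368% fell, 0.781% in all. At an unadjusted limma p under 0.05 there were 3 (Idh3a, Sdhb and Suclg1), a share to be read against 14.8% of all probe sets. Of the differences, 8 of 9 and those of all 9 other cycle genes were below 0, against 48.1% of all probe sets. The median was -0.18 against 0.01. All were read on the same 6 arrays and several of these genes move together, so the signs are not independent. The lists were chosen with earlier results of these data known, and the shared sign was not tested. Idh3a read 9.44, 9.33 and 9.42 on null and 9.72, 9.60 and 9.76 on wild-type arrays (-0.30 ± 0.09, adjusted p = 0.189). Sdhb read 10.09, 10.27 and 10.29 on null and 10.57, 10.50 and 10.44 on wild-type arrays (-0.29 ± 0.09, adjusted p = 0.191). Both enzymes had all null arrays below all wild-type ones, as did Cs, and groups that do not overlap were found for 20.0% of all probe sets.

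The same Mdh1 probe set that fell in stomach, 1448172_at, read 10.42, 10.64 and 10.77 on null kidney arrays and 11.16, 11.02 and 11.02 on wild-type arrays. It missed the threshold at -0.46 (adjusted p = 0.0790). Idh2, which is at its highest in kidney, read 9.58, 9.73 and 10.08 on null and 10.14, 9.96 and 10.13 on wild-type arrays, with overlap (-0.28 ± 0.13, adjusted p = 0.357). The summed signal of 6 proximal tubule markers was 10.62 to 11.12 on null and 11.57 to 11.61 on wild-type kidney arrays, and its part in these values was not tested. The Gapdh gap was 2.67 in both genotypes.

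**Figure D3:**
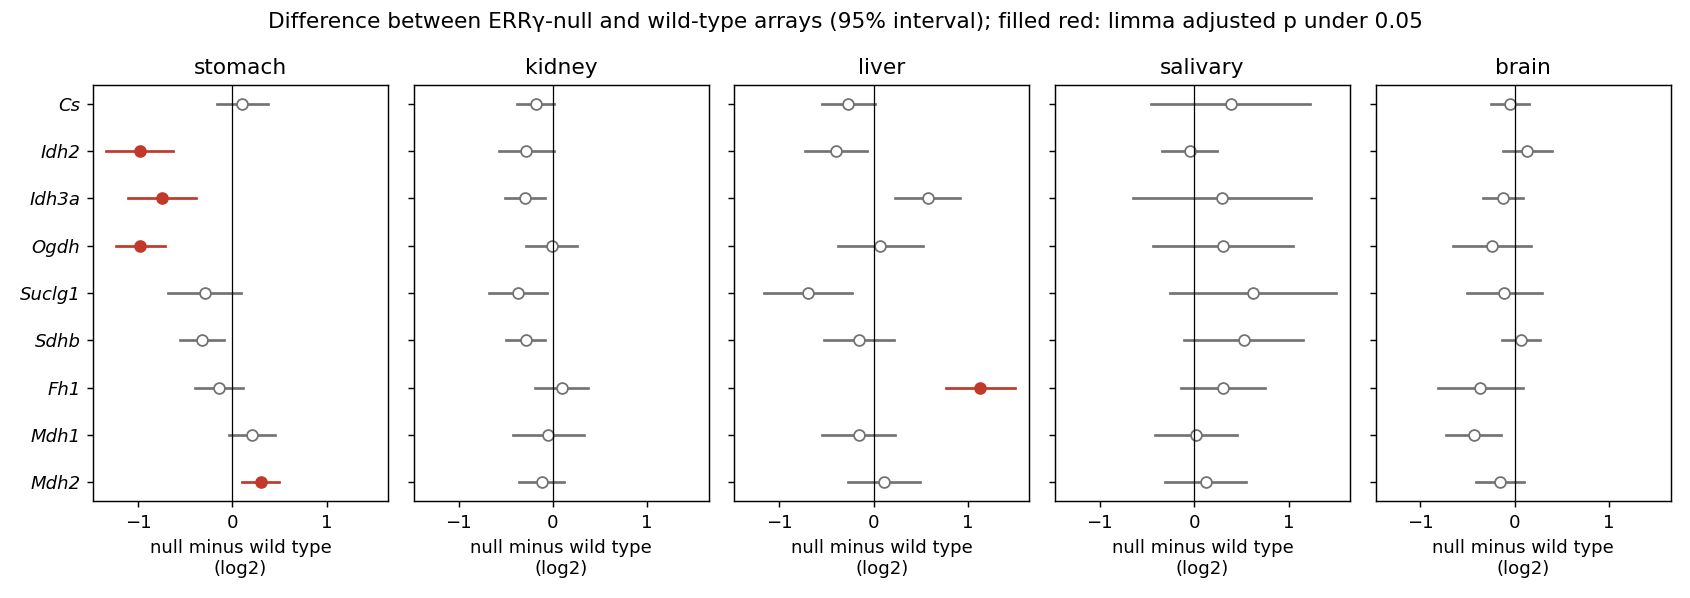
Null minus wild-type difference in log2 signal with its 95% interval from limma for the 9 enzymes (rows) in the 5 tissues (panels), filled red where the adjusted p is under 0.05. Idh2, Idh3a and Ogdh are lower and Mdh2 higher in stomach, Fh1 is higher in liver, and the intervals in salivary tissue are the widest.

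In liver 1 enzyme changed. Fh1, which hydrates fumarate to malate, rose, as did 3.47% of all probe sets tested, while none of the 9 fell, against 3.46%, and 6.93% passed in all. Fh1 read 11.31, 10.92 and 10.92 on null liver arrays and 10.19, 9.81 and 9.76 on wild-type arrays. The null arrays all lay above the wild-type ones and above the wild-type arrays of every other tissue. The difference was 1.13 ± 0.16, a ratio of 2.19 (limma adjusted p = 0.00634).

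The other enzymes were split in liver. Idh3a read 9.71, 9.36 and 9.33 on null and 8.88, 8.80 and 9.0 on wild-type arrays, 0.57 ± 0.15 higher but short of the threshold (adjusted p = 0.0540). Suclg1 read 9.37, 9.64 and 9.03 on null and 10.42, 9.95 and 9.76 on wild-type arrays, at -0.70 ± 0.21 (adjusted p = 0.0790). Idh2 was at 8.41, 8.52 and 8.26 on null and 8.94, 8.73 and 8.71 on wild-type arrays, at -0.40 ± 0.15 (adjusted p = 0.148). These 3 and Cs had groups that did not overlap, as had 27.9% of all probe sets, and the median of the 9 was -0.16. That median was 0.0133 without wild-type replicate 1, -0.03 without null replicate 3, -0.10 without null replicate 1 and -0.36 with the Gapdh gap as a covariate. Without null replicate 2, the calls numbered 3, with Idh3a (adjusted p = 0.0331) and Suclg1 (adjusted p = 0.0251) added to Fh1. Calls grew over the whole array in that fit, where 880 of all 13577 probe sets tested rose and 921 fell, against 471 and 470 with all arrays.

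Of the 8 relatives and feeding enzymes, 1 rose and 2 fell in null liver, and 5 did not pass. Got1 read 12.25, 10.73 and 12.02 on null and 8.68, 7.99 and 8.03 on wild-type arrays, a rise of 3.43 ± 0.36 or 10.8-fold (adjusted p = 0.00224). Idh1 read 7.56, 9.19 and 8.68 on null and 10.53, 10.68 and 10.63 on wild-type arrays, and fell by 2.14 (adjusted p = 0.00845). Glud1, glutamate dehydrogenase, which makes 2-oxoglutarate from glutamate, read 10.46, 10.82 and 10.30 on null and 11.67, 11.36 and 11.84 on wild-type arrays, and fell by 1.10 (adjusted p = 0.00790). None of the 9 other cycle genes passed in liver.

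The summed signal of 3 erythroid markers was 12.07 to 12.21 on null and 11.66 to 11.90 on wild-type liver arrays, and that of 5 brown fat markers 9.45 to 10.39 on null and 7.51 to 8.15 on wild-type arrays, with Ucp1 at 3.08 or less throughout and Ppargc1a, a coactivator gene on that list, at 10.19, 9.26 and 10.25 on null and 7.21, 7.45 and 6.82 on wild-type arrays. Their part in the differences was not tested. With the Gapdh gap as a covariate Fh1 stood at 0.96 (adjusted p = 0.219) and none of the 9 passed, and none of all probe sets tested passed in that fit.

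**Figure D4:**
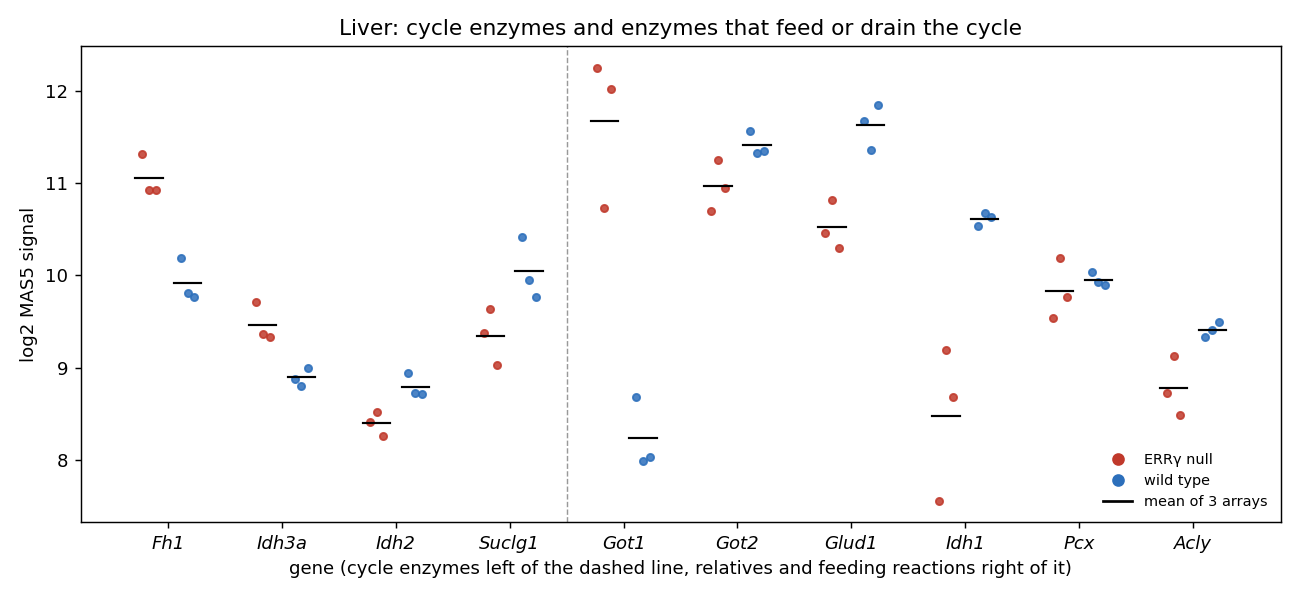
Log2 MAS5 signal in liver of 4 cycle enzymes, left of the dashed line, and of 6 relatives and feeding enzymes, right of it, with null arrays in red left of wild-type arrays in blue and bars at the mean of 3 arrays. Fh1 and Got1 are higher, and Idh1 and Glud1 lower, in null liver with no overlap of the groups.

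In salivary tissue none of the 9 enzymes passed and all 9 overlapped between the genotypes, where 3.50% of all probe sets tested rose, 4.72% fell, 8.22% passed in all and 28.2% did not overlap. None had an unadjusted limma p under 0.05, against 23.5% of all probe sets. The median difference was 0.30 and 8 of 9 were above 0. The arrays of a genotype were far apart: the median SD of the 9 enzymes was 0.49 in null and 0.48 in wild-type salivary tissue, and 0.10 to 0.23 in the 8 other groups.

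The spread ran through single arrays. Null replicate 2 was the highest of the 6 arrays for 8 of 9 enzymes, and null replicate 2 and wild-type replicate 3 were the top pair for 7 of 9. Idh3a read 10.26, 11.54 and 9.98 on null and 9.95, 9.87 and 11.08 on wild-type arrays. Cs read 10.36, 11.55 and 10.53 on null and 10.07, 9.97 and 11.24 on wild-type arrays. These 2 arrays were also the 2 highest for Ucp1, at 12.75 and 12.14. Suclg1 followed the same arrays, at 9.74, 10.56 and 9.23 on null and 8.93, 8.67 and 10.06 on wild-type arrays. Idh2 had the same top pair but moved less, with 9.36, 9.62 and 9.53 on null and 9.49, 9.50 and 9.66 on wild-type arrays. Fh1 and Mdh1 were the 2 enzymes without that top pair.

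The summed brown fat signal was 12.27 to 13.54 on null and 9.59 to 12.78 on wild-type salivary arrays, and that of 8 skeletal muscle markers 8.86 to 9.83 on null and 6.84 to 7.29 on wild-type arrays. With Ucp1 as a covariate the median of the 9 differences was -0.15, without the wild-type arrays whose Ucp1 was under 8 it was -0.16, and with Ckm as a covariate it was 0.83. With all 6 arrays but null replicate 2 it was -0.0267, and it ran from 0.12 to 0.61 when another array was left out. The sign of the salivary median thus depended on single arrays and on the adjustment, and no enzyme passed under any of these.

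**Figure D5:**
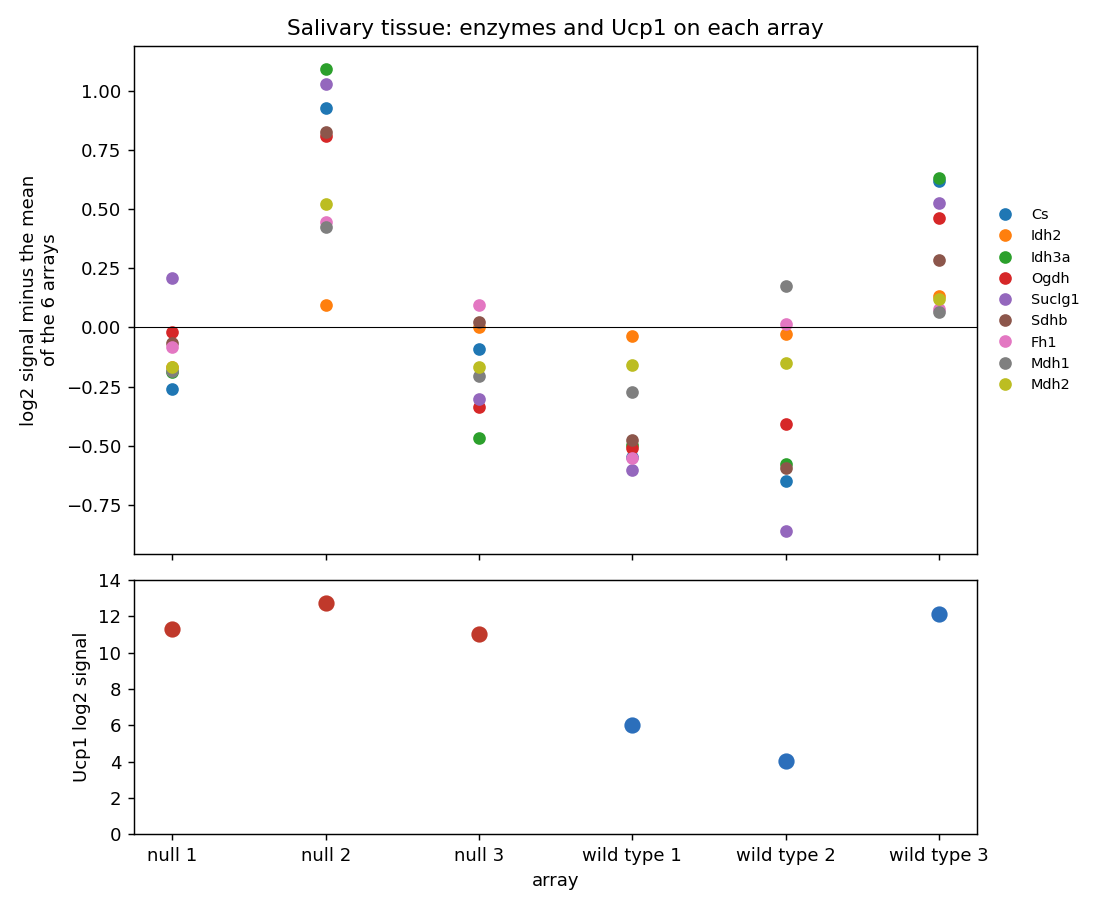
Salivary tissue, array by array: the upper panel gives each enzyme's log2 signal minus its mean over the 6 arrays, the lower panel the log2 signal of the brown fat gene Ucp1, with null arrays (red in the lower panel) left of wild-type arrays (blue). Null replicate 2 and wild-type replicate 3 are high for most enzymes and for Ucp1, and Idh2 hardly moves.

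In brain none of the 9 enzymes passed, and neither did any other probe set tested, so percent called was 0 in either direction. At an unadjusted limma p under 0.05 there was 1 enzyme, Mdh1, against 10.5% of all probe sets. Mdh1 read 10.08, 10.27 and 10.61 on null and 10.89, 10.70 and 10.68 on wild-type brain arrays, at -0.44 ± 0.13 (adjusted p = 0.379). Its probe set 1448172_at was at 0.13 (adjusted p = 0.667), the opposite sign. Idh2 read 7.59, 7.63 and 7.65 on null and 7.40, 7.54 and 7.53 on wild-type arrays, above in all 3 by a margin that missed the threshold (0.13 ± 0.12, adjusted p = 0.705). Groups without overlap made up 15.7% of all probe sets in brain, and the median of the 9 enzymes was -0.13. Null brain replicate 1 stood apart, with the skeletal muscle gene Acta1 at 8.92 against 4.56 to 5.38 on the other 5 brain arrays and the salivary gene Bpifa2 at 7.99 against 4.48 to 5.28. Without it the median was -0.0833.

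Averaged over the 5 tissues, Idh2 was the only one of the 9 that changed. It fell by 0.31 ± 0.06 on the log2 scale (limma adjusted p = 2.63e-04), where 11.1% of all probe sets tested fell and 11.4% rose, 22.5% in all. Without stomach its average was -0.15 (adjusted p = 0.0949) and none of the 9 passed, so the average rests on stomach. Of the 9 other cycle genes, Suclg2 fell by 0.35 ± 0.08 (adjusted p = 0.00375), and the test of a difference of its effect between tissues gave adjusted p = 0.577. Without stomach Suclg2 also missed the threshold (limma adjusted p = 0.0508). For Sdhc the answer again depended on the probe set. Its average was -0.43 on 1448630_a_at (adjusted p = 0.00478) and -0.09 on the probe set that stands for it (adjusted p = 0.386).

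The null effect differed between tissues for Idh2 (limma F test, adjusted p = 0.00126) and Fh1 (adjusted p = 0.00378), as it did for 15.3% of all probe sets. For Ogdh and Idh3a the test missed the threshold, at adjusted p = 0.0567 and 0.0871. Idh2's effect in stomach minus that in brain was -1.11 (adjusted p = 5.68e-04), minus salivary tissue -0.93 (adjusted p = 0.00198), minus kidney -0.70 (adjusted p = 0.0383) and minus liver -0.58 (adjusted p = 0.0419). Over all probe sets tested, 6.78%, 8.52%, 2.28% and 9.52% passed these 4 contrasts, in the same order. The effect on Idh2 in stomach thus lay below that in each other tissue, where Idh2 itself did not pass, at -0.40 in liver, -0.28 in kidney, -0.05 in salivary tissue and 0.13 in brain.

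Ogdh fell more in stomach than in salivary tissue, with a difference of effects of -1.28 (adjusted p = 0.0179), and than in liver, -1.05 (adjusted p = 0.0484). Against kidney and brain the difference missed the threshold, at -0.96 (adjusted p = 0.153) and -0.74 (adjusted p = 0.201). For Fh1, the effect in liver exceeded that in brain by 1.5 (adjusted p = 0.00206). In stomach minus liver it was -1.27 (adjusted p = 0.00425) and in kidney minus liver -1.04 (adjusted p = 0.0426), while liver minus salivary tissue missed the threshold at 0.82 (adjusted p = 0.0679). Over all probe sets, 4.03% passed between liver and brain and 2.29% between kidney and liver. Idh3a's effects in stomach and liver lay on opposite sides of 0 and differed by -1.32, stomach minus liver (adjusted p = 0.0284), though Idh3a itself did not pass in liver. This holds for the brightest probe set. Over all tissues the effects spanned only 0.82 on 1422501_s_at and 0.64 on 1422500_at (limma F test, adjusted p = 0.636 and 0.740).

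Promoters are shown for the enzymes with the largest differences and for the only windows in which a searched motif was found. The windows are RefSeq sequences on GRCm38.p6, from 250 bases before to 50 after a start, and 8 of the 9 enzymes had 1 or more, 13 windows in all. Idh3a had no window in the supplied sequences and so is not shown. Ogdh, on chromosome 11, had 6, of which the fourth is given (chr11:6291920-6292219, plus strand), with the 7-letter core AAGGTCA bound by ERR receptors in capitals, read on the minus strand as TGACCTT and beginning 5 bases before the start.

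Ogdh: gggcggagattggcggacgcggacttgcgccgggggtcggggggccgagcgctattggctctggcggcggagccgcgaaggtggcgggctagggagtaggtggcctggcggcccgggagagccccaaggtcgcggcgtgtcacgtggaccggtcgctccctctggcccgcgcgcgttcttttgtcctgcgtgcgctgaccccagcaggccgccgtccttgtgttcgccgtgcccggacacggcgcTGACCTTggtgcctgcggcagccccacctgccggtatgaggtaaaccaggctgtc
Sdhb: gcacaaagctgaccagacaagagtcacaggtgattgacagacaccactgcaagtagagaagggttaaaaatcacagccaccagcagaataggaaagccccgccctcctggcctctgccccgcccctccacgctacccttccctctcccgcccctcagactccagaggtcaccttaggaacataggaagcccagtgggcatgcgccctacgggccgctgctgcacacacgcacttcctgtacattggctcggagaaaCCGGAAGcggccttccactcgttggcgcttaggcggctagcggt
Idh2: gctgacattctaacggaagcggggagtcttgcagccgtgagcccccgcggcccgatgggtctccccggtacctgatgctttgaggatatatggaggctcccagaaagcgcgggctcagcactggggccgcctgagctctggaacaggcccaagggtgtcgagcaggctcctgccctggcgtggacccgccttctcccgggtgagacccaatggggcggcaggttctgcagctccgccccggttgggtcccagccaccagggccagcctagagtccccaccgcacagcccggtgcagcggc
Fh1: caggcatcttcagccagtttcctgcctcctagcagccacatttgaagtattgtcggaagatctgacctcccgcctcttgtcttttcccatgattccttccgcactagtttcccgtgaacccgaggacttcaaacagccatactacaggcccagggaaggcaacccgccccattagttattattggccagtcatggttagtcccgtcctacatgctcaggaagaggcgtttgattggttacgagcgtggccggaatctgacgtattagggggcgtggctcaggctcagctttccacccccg

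The Sdhb window is chr4:140961021-140961320 (plus strand), with the ETS-type site CCGGAAG in capitals, the Idh2 window chr7:80115301-80115600 (minus strand) and the Fh1 window chr1:175625586-175625885 (minus strand). On both strands, AAGGTCA was found in 1 of the 8 enzymes with a window, 12.5%, and in 5.38% of all genes and 4.72% of the 32851 windows. The longer TNAAGGTCA, which contains the core, was found in none of the 8, in 1.43% of all genes and in 1.28% of all windows, and CCGGAAG in 1 of the 8, in 9.93% of all genes and in 8.86% of windows. The Idh2 and Fh1 windows hold none of these letters, which says nothing of sites elsewhere.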

How the data were processed

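RNA of the 5 tissues was hybridized in 30 arrays. The authors deposited log2 values, which the submitters' processing notes credit to MAS5. No source used here states the MAS5 version or settings. Over all 30 arrays, the 2% trimmed mean of the linear values was 150.0, which settled the base as 2, and values ran from -6.64 to 13.45. They were used as deposited, with no further normalization. Arrays carry no counts, and precision is limited by 3 arrays a group. Of 22690 probe sets 64 controls were set aside. The supplied platform annotation gave 1 symbol to 20380 probe sets, several to 691 and none to 1555, and only probe sets with 1 symbol are named.

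Probe sets whose mean over the 6 arrays of a tissue reached its 40th percentile were tested with limma 3.58.1 in R 4.3.3 (lmFit, eBayes with a trend), Benjamini-Hochberg adjusted over all of them, at adjusted p under 0.05. A fit of all 30 arrays gave the average effect, the F test of its difference between tissues and the pairs of tissues, and a fit of 15 wild-type arrays the tissue levels. Named were all member probe sets, and of 10 other cycle genes (9 with a probe set) and 8 relatives those that passed in a tissue. The 9 members and these lists were chosen with earlier results of these data known. The fit was tested on simulated data. Coordinates and promoters are RefSeq's on GRCm38.p6. Alternatives covered the floor, pseudocount, filter, normalization, variance model, array weights, replicate block, covariates and left-out arrays or tissues, and 3 were added after seeing the data (salivary tissue without wild-type arrays of Ucp1 under 8, a number within a genotype as a random block by duplicateCorrelation, and wild-type neighbours without salivary replicate 3).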

Additional observations from a re-analysis of the deposited data

Results flagged for a closer look

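The null effect differed between tissues by limma's F test over all 30 arrays for 2 of the 9 enzymes and for 5 of the 8 relatives and feeding enzymes, where 15.3% of all probe sets tested passed. Of these 5, Got1, Idh1, Glud1 and Pcx had also passed in a single tissue. Acly, ATP citrate lyase, had not, and its adjusted p of 0.0440 missed the threshold in 9 of 11 alternative settings. Other Acly probe sets gave 0.0152 (1451666_at) and 0.326 (1425326_at). For Idh2 the adjusted p was 0.00126, with tissue effects that spanned 1.11 log2 units between stomach (-0.98) and brain (0.13). For Fh1 it was 0.00378, with effects from 1.13 in liver to -0.37 in brain. Got1 had the smallest adjusted p of the 7, 2.56e-08, with 3.43 in liver and -1.12 in stomach, opposite directions that each passed the test in their tissue. Idh1 had adjusted p = 9.50e-05 and was at -2.14 in liver and 0.29 in salivary tissue, while its dimmer probe set 1419821_s_at missed the threshold (adjusted p = 0.0801). Glud1 had adjusted p = 0.00121 and was at -1.10 in liver and 0.25 in salivary tissue. Pcx had adjusted p = 0.0199 and was at -0.39 in stomach and 0.88 in salivary tissue, where its groups overlapped and the arrays differed in Ucp1 as described.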

How the results depend on the processing

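The 4 calls in stomach became 2 in the fit over all 30 arrays, 1 with Alb as a covariate, 0 with the Gapdh gap as a covariate and 0 without the wild-type arrays of Alb over 8, and 2 to 5 when each array was left out, 2 without wild-type replicate 3. The 1 call in liver became 2 with quantile normalization, a floor at log2 5, the 60th percentile as the filter, the fit over all 30 arrays, array weights or Xist as a covariate, 0 with the Gapdh gap, and 1 to 3 when each array was left out, 3 without null replicate 2. The cause was not tested. The 1 call on average became 2 with the replicate block, 0 without stomach, 4 without salivary tissue and 2 without brain. The 2 effects that differed between tissues became 1 without stomach, 1 without liver, 4 without salivary tissue, 3 without brain and 3 with a floor at log2 5. The average of Idh1 turned to 0.0742 without liver. In stomach, over 20 alternatives, the call was lost 2 times for Ogdh, 3 for Idh2 and 5 for Idh3a, with differences of -1.07 to -0.82, -1.11 to -0.83 and -0.85 to -0.26, and Cs 1422578_at lost its call 12 times. Fh1 in liver lost it in 1 of 18. On the brightest probe sets no enzyme passed in kidney, salivary tissue or brain under any alternative, but Mdh1 1448172_at passed in kidney with equal medians (-0.51, adjusted p = 0.0476). Over all probe sets, the calls ranged from 2 to 3801 in stomach, 4 to 292 in kidney, 0 to 1988 in liver, 26 to 2198 in salivary tissue and 0 to 42 in brain. With equal medians the kidney calls were 54 higher and 106 lower, against 56 and 50. Titles share replicate numbers, but null and wild-type arrays of 1 number in a tissue did not deviate together (correlations of -0.24 to 0.14), so the numbers were not taken to pair them. Within a genotype, arrays of 1 number in different tissues had median correlations of 0.0755 in null and 0.0373 in wild-type mice, against -0.0260 and -0.0250 for other numbers. With that number as a random block, an alternative chosen after seeing the data, 1 enzyme passed on average, 2 in the F test between tissues and 7 over wild-type tissues, and of the 90 differences of effects between 2 tissues 1 changed its call (Suclg1 in liver minus salivary tissue, adjusted p = 0.0444 against 0.0523). With the replicate block 3 enzymes passed in stomach, 1 in liver, 0 in the other tissues, 2 in the F test between tissues and 7 over wild-type tissues.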

Other observations

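In null mice the order of tissues was not that of wild-type mice for any of the 9 enzymes. Salivary tissue had the highest signal for 6 of 9 enzymes in null and for 4 of 9 in wild-type mice, and brain the lowest for 5 of 9 in null and for 3 of 9 in wild-type mice. Ogdh, highest in stomach in wild-type mice, stood in the fourth place there in null mice, and Fh1 was highest in liver in null mice, where it stood in the fourth place in wild-type mice. These orders rest on means of 3 arrays and on salivary arrays that differed in Ucp1, and the change of order itself was not tested.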
